A study of Mus musculus with 10 samples.

Results

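A group of 10 imprinted genes with known roles in growth were followed in adult mouse muscle, namely H19, Igf2, Cdkn1c, Meg3, Rian, Dlk1, Peg3, Mest, Grb10 and Plagl1. The 10 symbols were given as a list, and each gene was taken at the row of the deposited table with the highest mean over all libraries, which makes 10 of 37947 named genes and 89 of 92251 rows. A row stands for 1 annotated transcript, and its value is the log2 of the FPKM, the number of fragments scaled to the length of the transcript and to the depth of the library, with an FPKM under 1 listed as 0. Of the 10 genes, 8 were above 0 in at least 1 library, 4 were above 0 in all 10 libraries (H19, Igf2, Cdkn1c and Grb10) and 2 were at 0 in every library (Peg3 and Plagl1).

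The libraries were made from poly-A RNA of the gastrocnemius, a large calf muscle, of male C57BL/6 mice without any other treatment or allele, with 5 young mice (6 months) and 5 aged mice (24 months). Each library came from the muscle of 1 mouse. The comparison of the ages asks which genes differ in a muscle that loses mass over this interval. The muscle was sequenced whole, so fewer cells of a type and less RNA per cell cannot be told apart, and the reads of these inbred mice were not assigned to a parental allele.

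An imprinted gene is transcribed mainly from the allele inherited from 1 parent, because a nearby control region carries DNA methylation set in the germ line. H19, Cdkn1c, Meg3, Rian and, in most tissues, Grb10 are expressed from the maternal allele, and Igf2, Dlk1, Peg3, Mest and Plagl1 from the paternal allele. Many of these genes are active in fetal muscle and in muscle precursors and are turned down after birth, the paternal ones tending to promote growth and the maternal ones to restrain it.

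The 10 genes lie in a few clusters (positions are those of GRCm38, the build also called mm10, from GENCODE). H19 (chr7:142575529-142578143) and Igf2 (chr7:142650766-142666816) are neighbors on the minus strand of chromosome 7 and share an enhancer region, with Cdkn1c (chr7:143458339-143461050) further along the same chromosome. Dlk1 (chr12:109452823-109463336), Meg3 (chr12:109541001-109571726) and Rian (chr12:109603940-109661716) lie in the Dlk1-Dio3 region of chromosome 12. Peg3 (chr7:6703892-6730431), Mest (chr6:30723547-30748465), Grb10 (chr11:11930508-12038683) and Plagl1 (chr10:13060504-13131694) lie apart. The kit did not mark strand, so reads of Mest cannot be told from those of Copg2, nor reads of Igf2 from those of Igf2os, where these genes overlap on opposite strands.

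H19 is a long noncoding RNA that carries the hairpin of the microRNA miR-675 (chr7:142577064-142577147, minus strand), and the hairpin has a row of its own in the table. Its sequence and its 2 mature arms from RefSeq (GRCm38.p6) are shown because the values of that row and of the H19 rows below depend on which part of H19 a row covers. Capitals mark the 2 arms in the hairpin, and the seed (bases 2 to 8) in each arm.
Mir675 hairpin: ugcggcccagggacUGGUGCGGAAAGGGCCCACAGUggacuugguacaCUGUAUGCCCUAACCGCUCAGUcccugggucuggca
mmu-miR-675-5p: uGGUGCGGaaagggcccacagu
mmu-miR-675-3p: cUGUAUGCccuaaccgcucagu

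Igf2 and Grb10 have several annotated starts, and the rows of the table differ by the start they use. The promoters (250 bases before to 50 after the start, RefSeq, GRCm38.p6, minus strand) of 2 starts of each gene are shown for that reason, with each CpG in capitals. The promoter of Igf2 at chr7:142666767-142667066 holds 2 CpGs and is where the row Igf2-004 starts, and that at chr7:142657447-142657746 holds 7 and is where the row Igf2-001 starts. Igf2 has 4 such promoters, and those not shown hold more CpGs. That at chr7:142661222-142661521 holds 14 and contains the start of the row Igf2-003. That at chr7:142658755-142659054 holds 24. The promoter of Grb10 at chr11:12037371-12037670 holds 45 CpGs and contains the start of the row Grb10-005, and that at chr11:12027922-12028221 holds 9 and is where the row Grb10-009 starts. Among the 32851 promoters of this length the median was 7 CpGs, 85.9% held at least 2 and 1.93% held at least 45.
Igf2 promoter, start of Igf2-004: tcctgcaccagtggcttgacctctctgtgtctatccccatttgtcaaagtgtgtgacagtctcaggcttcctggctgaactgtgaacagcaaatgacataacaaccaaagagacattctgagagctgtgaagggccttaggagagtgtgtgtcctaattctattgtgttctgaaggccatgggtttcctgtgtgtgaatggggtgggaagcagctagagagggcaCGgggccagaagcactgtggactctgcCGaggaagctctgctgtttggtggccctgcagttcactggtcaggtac
Igf2 promoter, start of Igf2-001: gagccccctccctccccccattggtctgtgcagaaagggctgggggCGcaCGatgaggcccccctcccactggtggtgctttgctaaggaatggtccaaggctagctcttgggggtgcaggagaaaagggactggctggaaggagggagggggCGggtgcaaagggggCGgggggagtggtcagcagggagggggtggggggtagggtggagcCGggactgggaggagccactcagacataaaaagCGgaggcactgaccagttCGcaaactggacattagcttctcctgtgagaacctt
Grb10 promoter, holding the start of Grb10-005: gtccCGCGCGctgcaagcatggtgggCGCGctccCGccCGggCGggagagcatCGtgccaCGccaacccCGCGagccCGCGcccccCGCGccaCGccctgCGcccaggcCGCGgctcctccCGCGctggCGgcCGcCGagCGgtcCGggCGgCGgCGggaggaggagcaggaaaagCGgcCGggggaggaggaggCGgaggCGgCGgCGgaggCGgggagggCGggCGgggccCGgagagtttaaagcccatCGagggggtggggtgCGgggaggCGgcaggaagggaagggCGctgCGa
Grb10 promoter, start of Grb10-009: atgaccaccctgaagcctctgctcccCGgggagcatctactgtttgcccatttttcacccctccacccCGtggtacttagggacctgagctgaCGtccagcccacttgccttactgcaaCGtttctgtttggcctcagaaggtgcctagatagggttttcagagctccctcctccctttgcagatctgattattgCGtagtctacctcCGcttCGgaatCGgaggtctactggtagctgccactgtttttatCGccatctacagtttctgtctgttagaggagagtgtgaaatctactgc

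The depth recovered from the values was 19886361 to 34554354 reads per library, highest in young library 3 (34554354) and aged library 3 (31783514). At the listing limit of FPKM 1, 1 kb of transcript corresponded to 19.9 to 34.6 reads. Each of 7 markers of muscle fibers was above 0 in every library, and their summed FPKM was 103169 to 121518 in the young and 87841 to 122340 in the aged libraries. The libraries numbered 3 in both groups stood apart: they had the fewest rows above 0 (35024 in the young and 29878 in the aged, against 38855 to 43296 in the other 8), and in the rows of H19, Igf2, Meg3 and Grb10 compared below a larger share of the reads lay in the 3′ part of the transcript there. The differences of the 5 imprinted genes tested are therefore given with and without both of them.

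H19 was by far the highest of the 10 genes and the others stood in a clear order only in part. Over the 10 libraries the log2 FPKM of the highest row was 5.16 to 7.97 for H19, 2.71 to 3.48 for Cdkn1c, 1.92 to 3.51 for Igf2 and 1.51 to 2.46 for Grb10. H19 did not overlap with any of the others, whereas Cdkn1c overlapped with Igf2, and Igf2 with Grb10. Meg3 (0 to 2.55), Mest (0 to 1.07), Dlk1 (0 to 0.64) and Rian (0 to 0.17) were at 0 in part of the libraries, as the plot of the 10 genes by library shows.

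**Figure D1:**
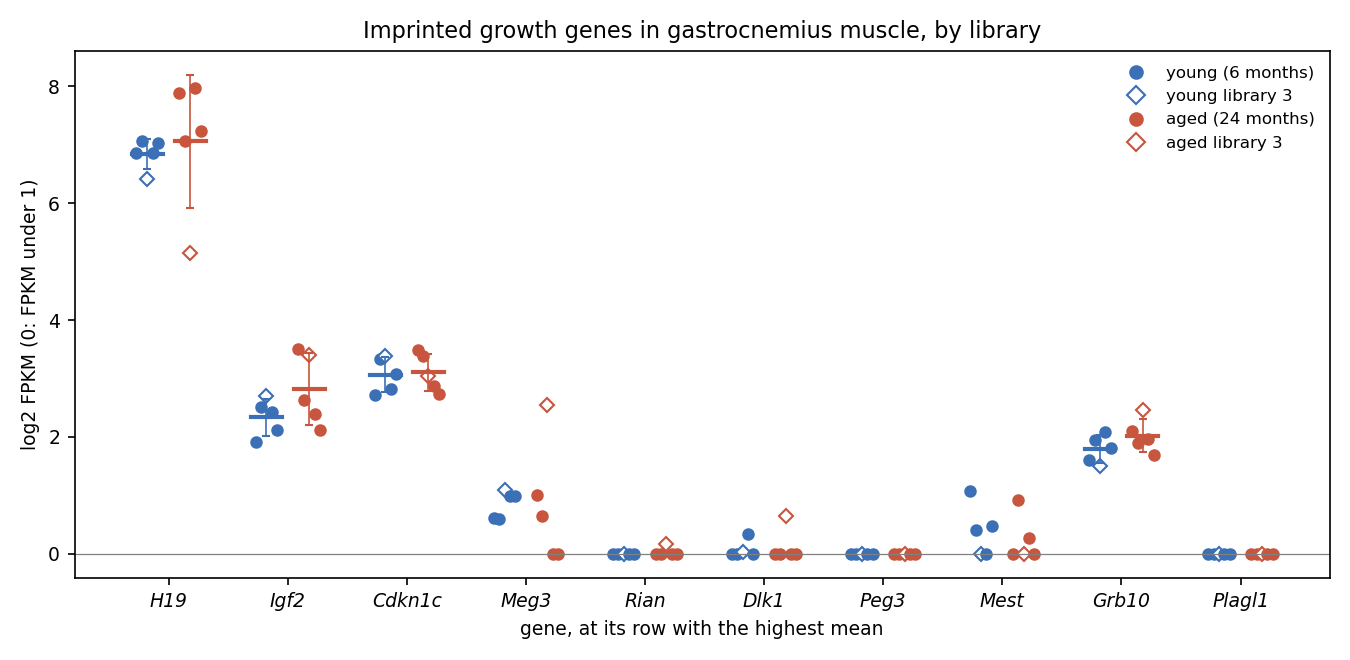
The log2 FPKM of the 10 genes (vertical axis, 0 for an FPKM under 1) is plotted for each library, with circles for the young (blue) and aged (red) libraries and open diamonds for the libraries numbered 3; for the 4 genes above 0 in all libraries, lines mark the mean and bars the SD (n = 5). H19 lies above all the others, and its aged libraries spread from 5.16 to 7.97.

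The ages overlapped for each of the 8 genes above 0, where 2.08% of all genes tested were higher and 0.344% lower in aged muscle without overlap. With limma fitted to the 38059 rows with a mean FPKM of at least 1, 5 of the 10 genes passed this filter (H19, Igf2, Cdkn1c, Grb10 and Meg3), and 0 of the 5 had a Benjamini-Hochberg adjusted p under 0.05, where 0.00984% of the 10161 genes tested were called higher and 0.0% lower in aged muscle. At an unadjusted p under 0.05 there were also 0 of the 5, against 6.05% of the genes higher and 0.876% lower, and the lowest unadjusted p of the 5 was 0.137, for Igf2. The aged mean was higher for 4 of the 5 genes, as it was for 61.4% of all genes. The median of the 5 differences was 0.22 on the log2 scale, beside 0.07 for all genes, and both medians were 0.14 without both libraries numbered 3. Over all rows limma called 3 higher and 0 lower, and 0 when libraries with the same number were taken as pairs (replicate block). At an unadjusted p under 0.05, 1482 rows were higher and 281 lower as deposited, which became 881 and 672 after quantile normalization, 2579 and 531 with the replicate block and 4371 and 420 without both libraries numbered 3.

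H19, which restrains growth of the embryo and rises when muscle precursors differentiate, was measured in 5 rows of the table. In the row with the highest mean, H19-002, the log2 FPKM was 6.87, 7.06, 6.42, 6.86 and 7.03 in young libraries 1 to 5 and 7.89, 7.07, 5.16, 7.97 and 7.23 in aged libraries 1 to 5. Aged libraries 1, 2, 4 and 5 lay above every young library and aged library 3 lay below all of them, so the groups overlapped at both ends. The means were 6.85 ± 0.26 (SD, n = 5) in the young and 7.06 ± 1.14 (SD, n = 5) in the aged muscle, a difference of 0.22 with a 95% interval of -0.83 to 1.26 (limma, adjusted p = 1.00, exact permutation p = 0.738, two-sided). The difference was 0.69 without aged library 3, 0.0095 without aged library 1, -0.010 without aged library 4 and 0.11 without young library 3, so its size and sign rested on single libraries.

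The rows of H19 cover different parts of the RNA. H19-001 matched the whole spliced RNA of 2286 bases, and the 5 exons of that transcript include the miR-675 hairpin at positions 997 to 1080. H19-002 matched a transcript of 935 bases that starts near the same 5′ end, reaches position 1474 and skips the hairpin, and H19-004 matched a transcript of 817 bases, of which 731 lie in positions 1451 to 2181 in the 3′ part. The rows overlap, so 1 read can count in several of them.

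The rows of H19 gave different age differences, with the highest in the 3′ part. In the 3′ row H19-004 the log2 FPKM was 5.41, 5.55, 5.85, 5.29 and 5.36 in the young libraries and 6.66, 5.59, 6.92, 6.10 and 5.76 in the aged libraries. Only young library 3 overlapped with the aged group, and within each of the 5 pairs of libraries with the same number the aged value was higher, by 0.05 to 1.26. The means were 5.49 ± 0.22 and 6.21 ± 0.57 (SD, n = 5 each), a difference of 0.72 with a 95% interval of 0.12 to 1.31 (limma, unadjusted p = 0.0223, adjusted p = 1.00; exact permutation p = 0.0317, two-sided). The unadjusted p was 0.0113 with the replicate block, 0.0579 without aged library 1 and 0.05001 without young library 4. In the full row H19-001 the difference was 0.46 (limma, adjusted p = 1.00, exact permutation p = 0.127), with 3653 to 5464 reads in the young and 4587 to 9428 reads in the aged libraries. The other 2 rows, H19-003 and H19-005, differed by 0.30 and 0.49, and H19-003 by 0.11 without aged library 1, 0.16 without aged library 4 and 0.60 without aged library 3.

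The libraries numbered 3 carried this split between the rows. Aged library 3 was the lowest of the 10 libraries in the 5′ row (5.16) and the highest in the 3′ row (6.92). The reads of the 3′ row H19-004 made up 66.7% of those of the full row in aged library 3 (3155 of 4727 reads, 95% Wilson interval 65.4 to 68.1%) and 29.8% in young library 3, against 15.8 to 22.3% in the other 8. The reads of the 5′ row H19-002 made up 22.4% and 50.5% in the same libraries, against 59.5 to 65.8% in the other 8. These intervals cover counting error only. The plot of the H19 rows shows that the 5′ and 3′ rows place aged library 3 at opposite ends of its group.

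**Figure D2:**
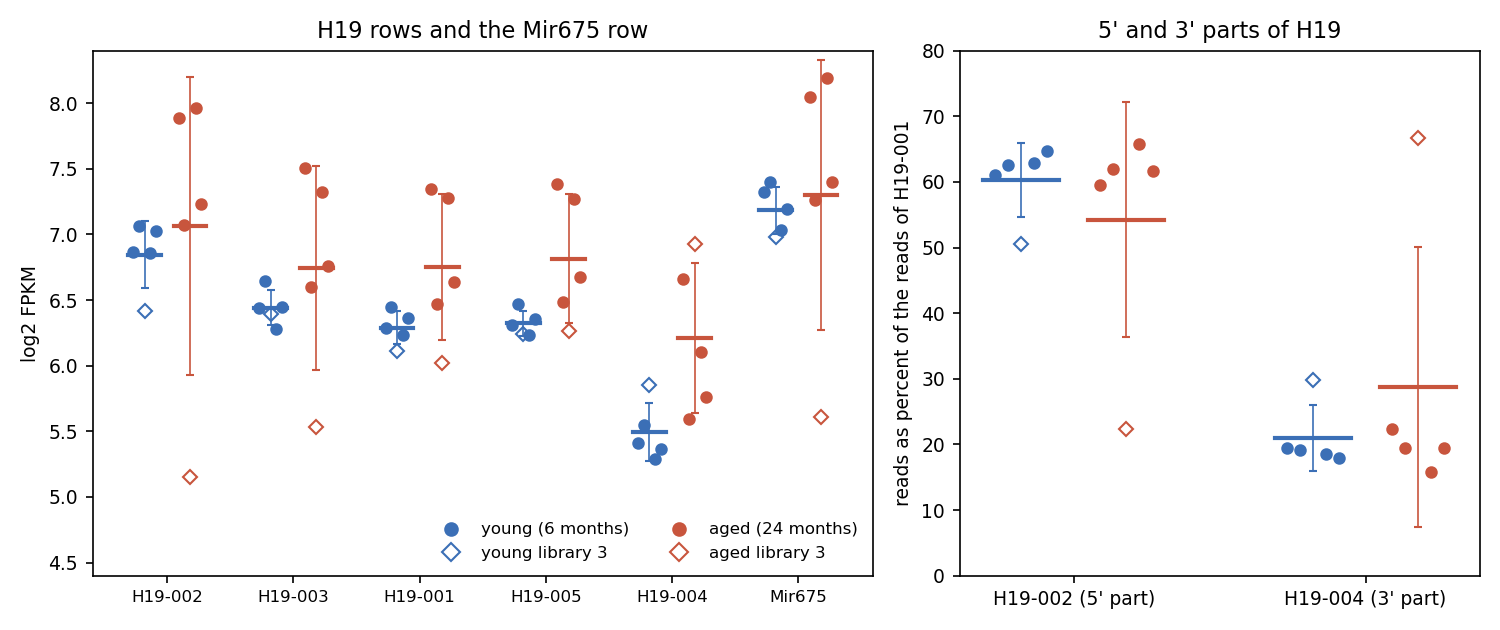
Left, the log2 FPKM of the 5 H19 rows and of the Mir675 row in each library; right, the reads of the 5′ row H19-002 and of the 3′ row H19-004 as a percent of the reads of the full row H19-001 (circles, libraries; open diamonds, libraries numbered 3; lines, means; bars, SD, n = 5; blue, young; red, aged). Aged library 3 has 22.4% in the 5′ row and 66.7% in the 3′ row, away from the other aged libraries in both.

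Without both libraries numbered 3, the 5 rows of H19 gave nearly equal differences of 0.59 to 0.63 on the log2 scale. In 4 of the 5 rows each of the 4 remaining aged libraries was then above each of the 4 young ones (exact permutation p = 0.0286, the smallest possible for 4 against 4), and the fifth, H19-003, overlapped (exact permutation p = 0.0571). The lowest aged value of H19-001 was 6.47 and the highest young value 6.45, so the gap between the groups was narrow. The limma unadjusted p of the 5 rows was 0.0160 to 0.0222 and the adjusted p 0.300 to 0.322, so no row passed the threshold. In these 8 libraries 8.13% of all rows and 9.92% of all genes were higher in aged muscle without overlap, 11.5% of the rows and 13.5% of the genes were higher at an unadjusted p under 0.05, and the median difference of all genes was 0.14. Aged libraries 1 and 4 were the highest in each H19 row (7.35 and 7.28 in H19-001), while aged libraries 2 and 5 (6.47 and 6.64) were close to the young ones.

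The row of the Mir675 hairpin, 84 bases long, followed H19. Its log2 FPKM was 7.32, 7.40, 6.98, 7.04 and 7.19 in the young and 8.05, 7.26, 5.61, 8.19 and 7.40 in the aged libraries, which rested on 244 to 367 and 130 to 653 reads. Aged libraries 1 and 4 were again the highest and aged library 3 the lowest. The difference was 0.11 (limma, adjusted p = 1.00) and 0.49 without both libraries numbered 3 (limma, unadjusted p = 0.0555, adjusted p = 0.410). After removal of the group means the row had the highest correlation with H19-002 of the 8216 genes compared over the 10 libraries (r = 0.987), followed by Tbc1d9b (r = 0.978). The Mir675 row shares the RNA of H19, and all these rows share the libraries that stand apart, so the values are a description. Reads on this row come from long poly-A RNA and are not a measure of mature miR-675. Of the 51 microRNA hairpins with a row in the Dlk1-Dio3 region, 2 were above 0 in any library. These rows are likewise not a measure of the mature microRNAs of the region.

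Igf2, the fetal growth factor that signals through the insulin and IGF1 receptors, was measured in 8 rows above 0. In the row Igf2-008 the log2 FPKM was 1.92, 2.52, 2.71, 2.42 and 2.12 in the young and 3.51, 2.64, 3.40, 2.40 and 2.12 in the aged libraries. Aged libraries 1 and 3 were above all young libraries and the other 3 lay among them. The means were 2.34 ± 0.31 and 2.81 ± 0.62 (SD, n = 5 each), a difference of 0.48 with a 95% interval of -0.18 to 1.13 (limma, adjusted p = 1.00, exact permutation p = 0.198). The difference was 0.42 without both libraries numbered 3 (limma, adjusted p = 0.552) and 0.30 without aged library 1. Without aged library 5 it was 0.65 and its limma unadjusted p was 0.0448 (adjusted p = 1.00). This row covers mainly the 3′ end, with 81.6% of its bases past the middle of the full transcript.

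In the full row of Igf2, aged library 1 stood alone. The values of Igf2-001, 3708 bases, were 1.18, 1.84, 1.54, 1.76 and 1.56 in the young and 2.64, 1.80, 1.69, 1.78 and 1.62 in the aged libraries, from 172 to 373 and 230 to 490 reads. Aged library 3 was here within the other aged libraries, and its reads in Igf2-008 made up 84.7% of those in Igf2-001, against 57.9% in young library 3 and 36.5 to 47.3% in the other 8. The difference was 0.33 (limma, adjusted p = 1.00, exact permutation p = 0.167), 0.37 without both libraries numbered 3 and 0.14 without aged library 1. All 5 rows above 0 in every library had a higher aged mean, by 0.31 to 0.48, and by 0.13 to 0.30 without aged library 1. The row Igf2-004, which starts at the promoter with 2 CpGs, was above 0 in 7 libraries with 17 to 36 reads each and at 0 in young libraries 1 and 3 and aged library 3, so few reads lay behind it.

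Aged library 1 also had the highest value of Myh3, the embryonic myosin heavy chain, which was 1.99 there and 0 to 0.97 in the other libraries. The B and plasma cell markers also had their highest summed FPKM there (291, against 52.5 to 149 in the other libraries). The part of either in the Igf2 values was not tested.

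The correlation of H19 and Igf2 across the libraries was positive for most pairs of their rows but not for the rows with the highest means. Between H19-002 and Igf2-008 Pearson's r was -0.25 over the 10 libraries (permutation p = 0.467) and Spearman's rho -0.15 (permutation p = 0.684), the only relation of the 6 planned within clusters for which both genes were above 0 in all libraries. With the group means removed r was -0.37 (permutation p = 0.310), and without the 2 libraries farthest from the median of H19, aged libraries 3 and 4, it was 0.54. Without both libraries numbered 3 it was 0.59 (n = 8), without aged library 3 alone 0.38 and without aged library 1 alone -0.73. Over all 25 pairs of a row of H19 and a row of Igf2, r was above 0 for 23 and below 0 for 2 in 10 libraries, from -0.25 for the pair above to 0.85. It was 0.59 to 0.82 for the 25 pairs without the libraries numbered 3. The pairs share reads and libraries and are no independent cases.

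Cdkn1c, which encodes the cell cycle inhibitor p57, came after H19 in mean level, and its ages differed by less than the spread between mice. Its log2 FPKM was 2.71, 3.33, 3.38, 2.81 and 3.07 in the young and 3.48, 3.39, 3.04, 2.87 and 2.74 in the aged libraries. Both groups covered nearly the same range. The means were 3.06 ± 0.30 and 3.10 ± 0.32 (SD, n = 5 each), a difference of 0.04 with a 95% interval of -0.42 to 0.51 (limma, adjusted p = 1.00, exact permutation p = 0.786), which became 0.14 without both libraries numbered 3 (limma, adjusted p = 0.797). Its 2 rows, of 1893 and 1931 bases, gave nearly the same values. Aged libraries 1 and 2 and young libraries 2 and 3 were the highest 4, which is a different order from that of H19.

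The other inhibitors of its family are given beside it. Cdkn1a, which encodes p21, was 1.57, 2.56, 2.98, 1.53 and 2.71 in the young and 3.56, 3.44, 4.24, 3.99 and 5.53 in the aged libraries. Each aged library was above each young one, which held for 2.08% of all genes in this direction. The difference was 1.88 (exact permutation p = 0.00794, the smallest possible for 5 against 5; limma, unadjusted p = 0.00144, adjusted p = 0.599). Cdkn1b, which encodes p27, was 3.47 ± 0.26 in the young and 3.06 ± 0.65 in the aged muscle (SD, n = 5 each; limma, adjusted p = 1.00). Of the 6 genes in the list of other inhibitors of cyclin-dependent kinases, 4 were tested, and 1 was higher and 0 lower at an unadjusted p under 0.05, where 6.05% and 0.876% of all genes were. The difference between the changes of Cdkn1c and Cdkn1a was not tested.

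Grb10 encodes an adaptor that binds the insulin and IGF1 receptors and limits their signal, and it was low in every library. The log2 FPKM of Grb10-009 was 1.60, 1.94, 1.51, 2.09 and 1.81 in the young and 2.10, 1.89, 2.46, 1.97 and 1.70 in the aged libraries. Aged library 3 was the highest and the remaining libraries of both groups were interleaved. The means were 1.79 ± 0.24 and 2.02 ± 0.28 (SD, n = 5 each), a difference of 0.23 with a 95% interval of -0.18 to 0.65 (limma, adjusted p = 1.00, exact permutation p = 0.198), which became 0.05 without both libraries numbered 3 and 0.12 without aged library 3.

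Aged library 3 had 832 reads in Grb10-009, against 294 to 495 in the other 9. These counts are not scaled to depth, and the libraries numbered 3 were the deepest. Young library 3 had 467 reads in this row but the lowest log2 FPKM (1.51). The 5′ rows of aged library 3 went the other way. Grb10-004, which ends before the middle of the full transcript, was at 0 in both libraries numbered 3 and had 95 to 203 reads in each of the other 8. Grb10-005 and Grb10-009 share 4686 bases, and Grb10-005 differs from Grb10-009 by its first exon and by 1 internal exon of 165 bases. The reads of Grb10-005 exceeded those of Grb10-009 by 0 to 35 per library, with 0 and 2 in aged and young library 3. This excess is a net difference, since Grb10-009 has a first exon of its own (69 bases) whose reads are subtracted. It counts neither the reads of the exons of Grb10-005 nor the use of the 2 starts. The use of the 2 starts was not compared between the ages.

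Among the partners of Igf2 and Grb10, no gene of either list passed an unadjusted p under 0.05 in limma, where 6.05% of all genes were higher and 0.876% lower by this measure. Igf1, the adult growth factor of the same family, was 1.50 ± 0.21 in the young and 1.57 ± 0.48 in the aged muscle (SD, n = 5 each), and Igf2r, the imprinted receptor that clears Igf2, was 2.63 ± 0.27 and 2.70 ± 0.58. Insr was 2.26 ± 0.41 and 2.54 ± 0.66, and Igf1r was above 0 only in aged libraries 4 and 5 (0.44 and 0.13). Grb14, the closest relative of Grb10, was 1.81 ± 0.70 and 2.07 ± 1.03. Of the 17 genes of the IGF axis 11 were tested, with 7 aged means higher and 4 lower and a median difference of 0.07, the same as that of all genes. Of the 7 other adaptors of the insulin receptor 5 were tested, with 2 higher and 3 lower and a median of -0.02.

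Meg3, the long noncoding RNA of the Dlk1-Dio3 region, was close to the listing limit. The log2 FPKM of Meg3-006 was 0.61, 0.60, 1.09, 0.99 and 1.00 in the young and 1.00, 0.65, 2.55, 0 and 0 in the aged libraries. Aged library 3 was the highest of all 10 libraries and aged libraries 4 and 5 were at 0, whereas all young libraries were above 0. The limma difference was -0.02 (adjusted p = 1.00, exact permutation p = 0.976) and -0.39 without both libraries numbered 3 (limma, unadjusted p = 0.143), with values at 0 taken as an FPKM of 1. This row lies past the middle of the longer row Meg3-003 and had 131 of the 151 reads of that row in aged library 3 (86.8%), 67.5% in young library 3 and 43.8 to 52.4% in the 4 other libraries where both were above 0. The 8 values above 0 rested on 22 to 131 reads.

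The same 2 aged libraries were at 0 in each of the 4 Meg3 rows that passed the filter. Of these rows, Meg3-008 passed it only through the young libraries (mean FPKM 1.61, against 0.962 in the aged). Its difference is a description. The shortest of the 4, Meg3-010, was the only row outside H19 past an unadjusted limma p of 0.05 without both libraries numbered 3. It then had a difference of -0.41, and 1.1% of all rows were lower by the same measure. With all 10 libraries 23 rows of the 5 genes were tested, of which 1 had an unadjusted p under 0.05 (H19-004) and 0 had groups that did not overlap, where 3.89% and 1.25% of all rows were higher by these measures. The aged mean was higher for 18 of the 23 rows, where 55.1% of all rows tested had a higher aged mean. The 5 others were 3 rows of Meg3, with Meg3-008 among them, and 2 of Grb10. The 14 rows above 0 in every library are among the 18, as the plot of their differences shows. These 14 rows belong to only 4 genes and share reads within each gene.

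**Figure D3:**
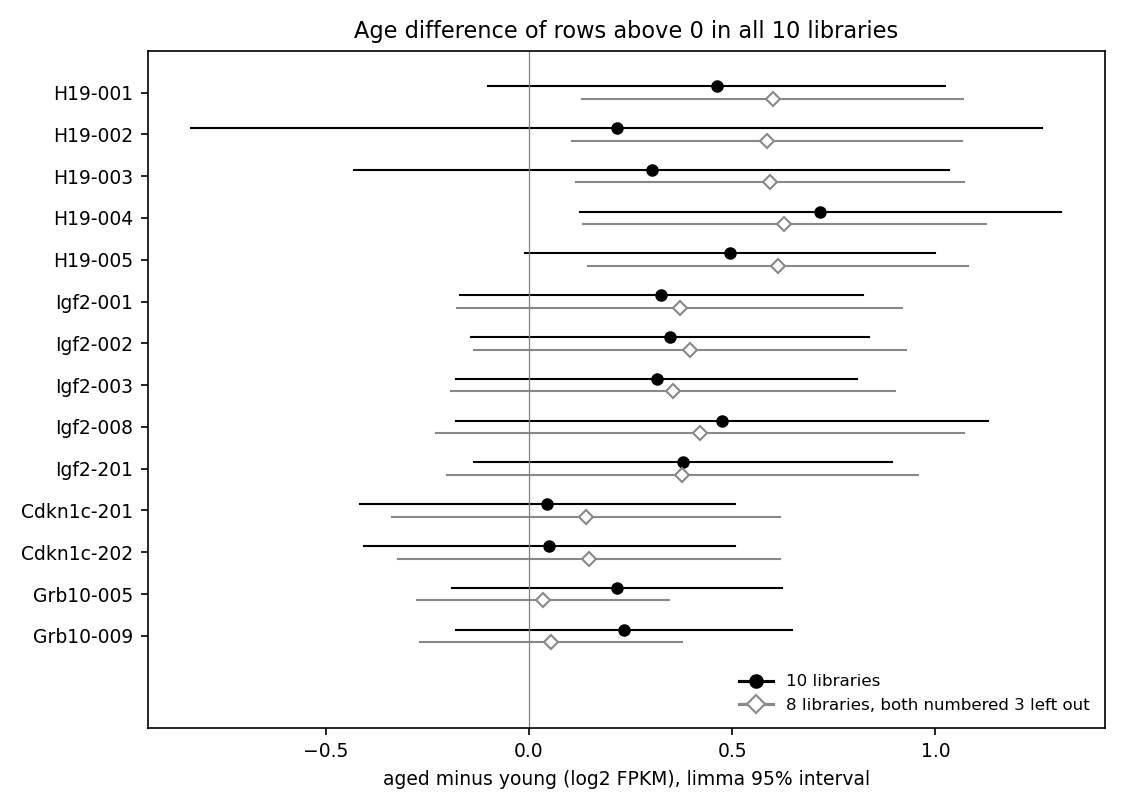
The difference of aged minus young muscle (log2 FPKM, horizontal axis) with its limma 95% interval for the 14 rows of H19, Igf2, Cdkn1c and Grb10 above 0 in all libraries, from 10 libraries (black circles) and from 8 without both libraries numbered 3 (gray diamonds). The 5 H19 rows spread from 0.22 to 0.72 with 10 libraries and come together at 0.59 to 0.63 with 8.

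The other genes of the Dlk1-Dio3 region were lower still. Dlk1, a transmembrane relative of the Notch ligands, was above 0 in young libraries 3 and 4 (0.03 and 0.35) and aged library 3 (0.64), and Rian only in aged library 3 (0.17). Mirg and Rtl1 were at 0 in all libraries. On the longest annotated transcript a value of 0 means fewer than 93 to 161 reads for Dlk1 and fewer than 161 to 280 for Rian, since lower values were set to 0 before deposit. Of the 13 genes of the Notch pathway 10 were tested, and only Dll1 had an unadjusted p under 0.05, where 6.05% of all genes were higher by this measure. Dll1, a Notch ligand, was at 0 in 4 of 5 young and 1 of 5 aged libraries and reached up to 1.96 in aged library 3. It passed the filter on low values only through the aged libraries (mean FPKM 0.257 in the young and 1.83 in the aged), so its difference is a description.

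Mest, which encodes a membrane protein of the hydrolase family and is high in growing mesoderm, was above 0 in 5 libraries. The log2 FPKM of Mest-009 was 1.07, 0.40, 0, 0 and 0.49 in the young and 0, 0.92, 0, 0.28 and 0 in the aged libraries, from 13 to 20 reads where it was above 0 (exact permutation p = 0.603). Young library 1 and aged library 2 were the highest, in this row and in 6 of the other 9 Mest rows above 0. Peg3, a zinc finger protein, and Plagl1, a zinc finger factor that controls other imprinted genes, were at 0 in all 4 and all 24 of their rows, and Usp29, the neighbor of Peg3, was also at 0. For the longest transcripts this means fewer than 173 to 300 reads for Peg3 and fewer than 105 to 182 for Plagl1 in each library.

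Markers of muscle precursors were low or at 0 in these libraries. Of 6 markers of satellite cells, the stem cells of muscle, Pax7, Calcr and Myf5 were at 0 in all libraries. Cdh15 was above 0 in all 10 libraries (log2 FPKM 1.94 to 2.52), Chodl in 9 and Vcam1 in 2. The summed FPKM of the list was 5.62 to 7.49 in the young and 5.48 to 8.29 in the aged libraries. The fibroblast markers summed to 184 to 284 in the young and 140 to 293 in the aged libraries, the endothelial markers to 41.4 to 45.9 and 37.2 to 55.6, the adipocyte markers to 175 to 374 and 241 to 369, and the smooth muscle markers to 85.1 to 175 and 96.5 to 158. The macrophage markers, by contrast, summed to 5.99 to 18.9 in the young and to 15.6, 13.3, 78.6, 63.9 and 22.6 in aged libraries 1 to 5, all 7 being above 0 in at least 1 library. Their highest sums were in aged libraries 3 and 4, whose values in the full H19 row were the lowest and the second highest (6.02 and 7.28). Of 4 macrophage markers tested, Cd68 and C1qb had an unadjusted p under 0.05 and were higher in aged muscle, as was Igkc of 2 plasma cell markers tested, where 6.05% of all genes were. Cd68 and Igkc passed the filter only through the aged libraries (mean FPKM 0.245 and 0.707 in the young, 3.20 and 34.7 in the aged), so these 2 calls are a description. Of 7 fibroblast markers tested Col3a1 was lower, where 0.876% of all genes were, while 4 of the 7 had a higher aged mean and the median difference was 0.06 (limma, adjusted p = 1.00 for C1qb and Col3a1). The part of these cells in the values of the imprinted genes was not tested.

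Of 12 genes of regeneration and denervation 8 were tested, and 4 had an unadjusted p under 0.05 and were higher in aged muscle, where 6.05% of all genes were. The list was chosen with earlier results of these data known, so this count is a description. Chrna1, the alpha subunit of the acetylcholine receptor, was 0.73 ± 0.30 in the young and 2.06 ± 0.35 in the aged muscle (SD, n = 5 each), with each aged library above each young one, as for 2.08% of all genes (limma, difference 1.33, adjusted p = 0.222). Gadd45a (0.81), Myl4 (1.10) and Myh3 (0.73) were the other 3. Myh3 passed the filter only through the aged libraries (mean FPKM 0.702 in the young and 1.84 in the aged), so its call is a description, and with the replicate block its unadjusted p was 0.0585. Chrna1 was highest in aged libraries 3 and 4 (2.42 and 2.43) and Gadd45a in aged library 5 (6.35). Myl4 was highest in aged libraries 3 and 1 (5.11 and 4.58) and Myh3 in aged library 1 (1.99), whereas H19-002 was highest in aged libraries 4 and 1 and lowest in aged library 3, and H19-004 was highest in aged libraries 3 and 1. Of 15 genes that maintain imprints 9 were tested, with 6 aged means higher and 3 lower, 0 with an unadjusted p under 0.05 and a median difference of 0.07.

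Beyond the 10 genes, 49 other imprinted genes had a row in the table, of which 22 were at 0 in all libraries and 27 were tested. The aged mean was higher for 17 and lower for 10, with a median difference of 0.05, where 61.4% of all genes had a higher aged mean and the median of all genes was 0.07. Of the 15 maternally expressed genes 11 were higher and 4 lower, 0 with an unadjusted p under 0.05, and of the 12 paternally expressed genes 6 were higher and 6 lower, 2 of the latter with an unadjusted p under 0.05, where 0.876% of all genes were lower by this measure. These 2 were Snrpn and Snurf, which were lower in every aged library, as the plot of the other imprinted genes shows.

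Snrpn and Snurf are made from 1 shared paternal transcript (Snrpn at chr7:59982495-60450177, RefSeq), Snrpn encoding a protein of the small ribonucleoproteins that take part in splicing. The log2 FPKM of Snrpn was 4.42, 4.37, 4.47, 4.34 and 4.35 in the young and 4.00, 3.95, 3.95, 3.62 and 3.62 in the aged libraries. The groups were clearly apart and the young libraries were nearly equal. The means were 4.39 ± 0.06 and 3.83 ± 0.19 (SD, n = 5 each), a difference of -0.56 with a 95% interval of -0.87 to -0.25 (exact permutation p = 0.00794; limma, unadjusted p = 0.00227, adjusted p = 0.636). Non-overlap in this direction held for 0.344% of all genes, and the difference was -0.57 without both libraries numbered 3.

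Snurf was 6.59, 6.50, 6.17, 6.58 and 6.51 in the young and 6.16, 6.12, 4.23, 5.88 and 5.71 in the aged libraries. The groups did not overlap, although young library 3 (6.17) and aged library 1 (6.16) nearly met, and both libraries numbered 3 were the lowest of their group. The difference was -0.85 (exact permutation p = 0.00794; limma, unadjusted p = 0.0313, adjusted p = 1.00) and -0.58 without both libraries numbered 3. It was -0.50 without aged library 3, and the unadjusted p was 0.0546 to 0.0594 when young library 1, 2, 4 or 5 was left out. Since both rows share reads of the same transcript, they are not independent of each other. The limma adjusted p of Snrpn was 0.173 or more in all alternatives run, so neither gene passed the threshold over the whole table.

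**Figure D4:**
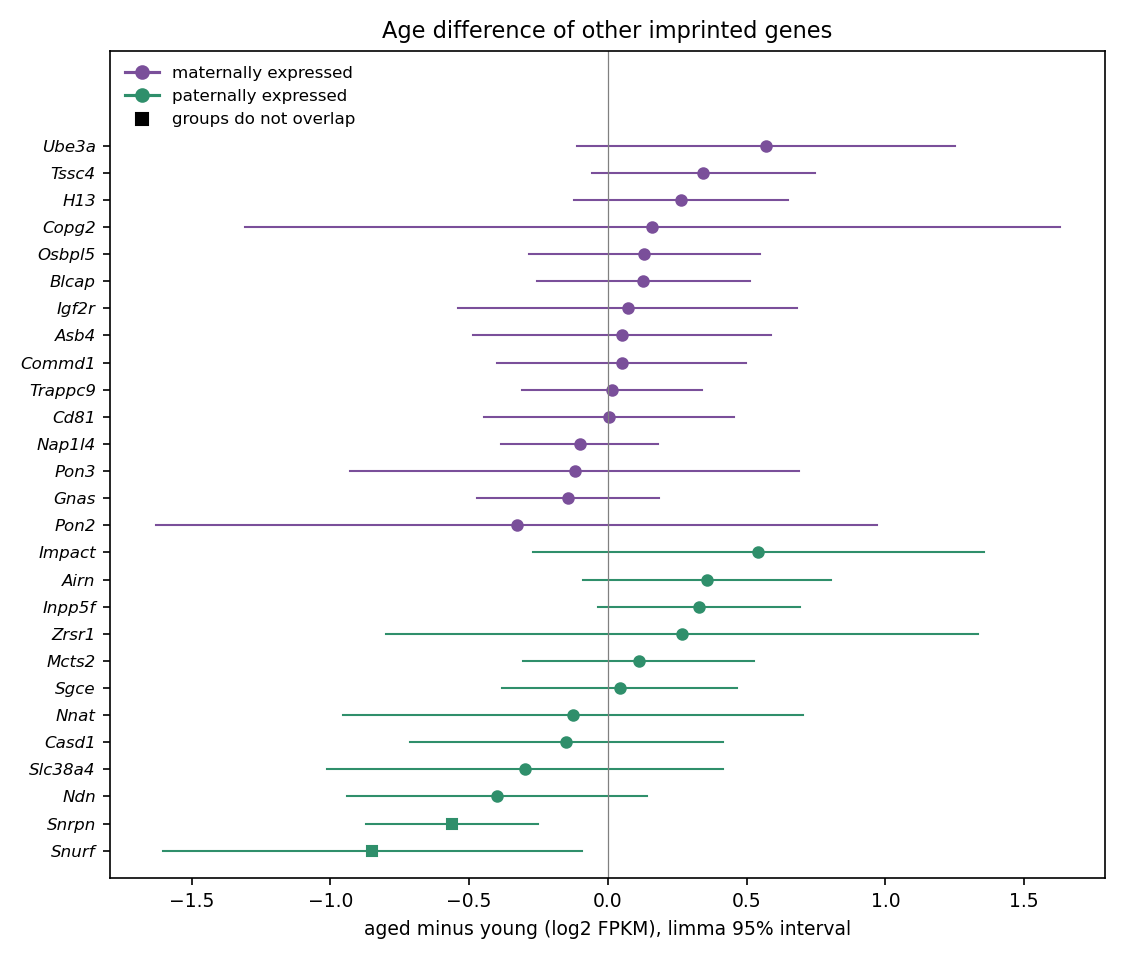
The difference of aged minus young muscle (log2 FPKM, horizontal axis) with its limma 95% interval for the 15 maternally (purple) and 12 paternally expressed (green) other imprinted genes that were tested; squares mark genes whose groups do not overlap. Snrpn (-0.56) and Snurf (-0.85) are the 2 squares, both lower in aged muscle.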

How the data were processed

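The authors prepared poly-A libraries, aligned them with TopHat2 to mm10 and deposited log2 values of FPKM for each library and transcript, with no pooling and an FPKM under 1 as 0; the program that counted the reads is not given in the sources used here. The methods name the RefSeq gene model for the FPKM, whereas the deposited rows carry transcript names, so how a read was assigned among the transcripts of a gene is not given. All 10 columns were assigned by age and number. The rule was the gene symbol without the dash and 3 digits and the row with the highest mean. The 10 genes and the other lists were chosen with earlier results of these data known, so counts of genes called in a list are a description. limma 3.58.1 (R 4.3.3, Benjamini-Hochberg, threshold 0.05) was fitted to the deposited log2 values of 38059 rows with a mean FPKM of at least 1, and was tested on simulated data. For single genes an exact permutation test (two-sided) was added. P-values of the age comparison rest on the spread between the libraries of a group, 5 unless some were left out. With 1 library per mouse, differences between mice and between libraries cannot be told apart in this spread.

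Named were the 10 genes, their direct partners, genes of each list with an unadjusted limma p under 0.05 (at most 5) and the nearest genes in correlation. The result of 1 marker list is not reported here. Beside H19, Tbc1d9b and Mir675 these were Cpxm2 and Tha1 for Igf2 (r = 0.975 and 0.925), Apeh and Pex11c for Cdkn1c (0.909 and 0.908) and Ptrhd1 and Bicc1 for Grb10 (0.949 and 0.944), over 10 libraries with group means removed. Reads were recovered from the steps of the FPKM values. Over genes with 1 transcript in both the table and GENCODE, 70.6 to 72.2% of the values per library came out whole (tolerance 0.02) at the annotated length. In each of the 30 rows of the 10 genes with values in 5 or more libraries they came out whole (tolerance 0.05) at a length that was itself found from the values, 25 of them at a length that GENCODE lists for the gene. They describe precision only. Transcripts, positions and promoters came from GENCODE M21 and RefSeq (GRCm38.p6); H19 and Cdkn1c had no promoter entry.

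The same numbers 1 to 5 occur in both groups. Libraries with the same number deviated together (correlations 0.131 to 0.695, mean 0.351, against -0.76 to 0.54 and a mean of -0.04 for 20 other combinations), so a fit with the number as replicate block was run. Of the 5 young libraries 3, and of the 5 aged libraries 4, correlated best with their own number, and without both libraries numbered 3 the means were 0.265 and 0.193. Alternatives covered pseudocounts, filters, scaling, other rows and omitted libraries.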

Additional observations from a re-analysis of the deposited data

Results flagged for a closer look

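Of 74 groups of 5 libraries examined, 17 values were far from the rest of their group. Chance gives about 1 in 20, and many of these share reads or a library. This rate does not apply to Dll1 (below), which was at 0 in the other libraries of its group. In the rows of Igf2, aged library 1 was far above the other aged libraries in Igf2-001 (log2 FPKM 2.64), Igf2-002 (2.31) and Igf2-003 (2.51). Library 3 was far below its group in Grb10-004 (0, young), Snurf (6.17, young, and 4.23, aged), Igf2r (2.17, young) and Insr (1.54, young).

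The shares of reads set library 3 apart in both ages. The reads of H19-002 were 50.5% (young) and 22.4% (aged) of those of H19-001 there, the reads of H19-004 were 29.8% and 66.7% of them, and the reads of Igf2-008 were 57.9% and 84.7% of those of Igf2-001. Igf1 was low in aged library 5 (0.72), and Myh3 (0.45) and Dll1 (0.36) were high in young library 4. Dll1 was at 0 in the other young libraries, so any value above 0 there would have been flagged. A value of 0 stands for any FPKM under 1, so this flag does not show an exceptional value.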

How the results depend on the processing

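No alternative brought any of the 5 genes tested (H19, Igf2, Cdkn1c, Grb10 and Meg3) past a limma adjusted p of 0.05 (lowest 0.322, H19 without both libraries numbered 3), and the differences of Igf2 and Grb10 kept their sign in all 21. The count of rows called higher moved from 3 to 5 with log2 of FPKM plus 1 or with rows above 0 in all libraries, to 0 after quantile normalization, median of ratios or the replicate block, to 11 without both libraries numbered 3, and to 218 (35 lower) with the study's own 2-sample test at over 2-fold and an unadjusted p under 0.05. With single libraries left out it was 0 to 23 (23 without aged library 3, 11 without aged library 5). At an unadjusted p under 0.05 the replicate block gave 2579 rows higher and 531 lower, against 1482 and 281. Of the genes and H19 rows named at that threshold, Myh3 lost its call with the block (unadjusted p = 0.0585). With single libraries left out, the highest unadjusted p was 0.0947 for Myh3 (lost in 8 of 10), 0.0868 for Myl4 (5), 0.0790 for Gadd45a (4), 0.0594 for Snurf (4) and 0.0579 for H19-004 (2).

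Leaving out single libraries gave differences of -0.010 to 0.69 for H19, 0.30 to 0.65 for Igf2 (0.30 without aged library 1), -0.050 to 0.14 for Cdkn1c, -0.45 to 0.19 for Meg3, -0.32 to 0.017 for Mest, -0.075 to 0.12 for Dlk1 and -0.11 to 0.54 for Mir675. Meg3 was 0.028 after quantile normalization and -1.07 with FPKM summed over its rows, and Dlk1 was -0.17 with log2 of FPKM plus 1 and -0.087 without both libraries numbered 3. The H19 and Igf2 correlation was 0.59 without both libraries numbered 3, 0.72 with the longest rows (chosen after seeing the data) and -0.73 to 0.38 with single libraries left out, -0.73 without aged library 1 and 0.38 without aged library 3. The cause was not tested. The median of all genes was 0.07 as deposited, 0.04 after quantile normalization and 0.03 with median of ratios. An FPKM under 1 was listed as 0, which limits what low levels can show.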
